A study of Mus musculus with 15 samples.

Results

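The elastic fibre and microfibril genes followed here are 10 genes of the elastic layers of the artery wall: Eln, Fbln1, Fbln2, Fbln5, Efemp1, Efemp2, Emilin1, Mfap2, Mfap4 and Mfap5. Their mRNA was examined in the aorta of mice infused with angiotensin II (AngII), a peptide hormone that raises blood pressure. A gene was taken as measured where at least 1 probe set with deposited values carried its symbol and no other. The probe set with the highest mean over all arrays was used where there was a choice. By this rule 9 of the 10 genes were measured, each by a single probe set, among 15095 probe sets of which 13403 carried exactly 1 symbol. Efemp2, the gene of fibulin-4, was not measured here. All animals were C57BL6 mice aged 2 months when an osmotic minipump was implanted, and none carried a genetic modification according to the labels. In 8 mice the pump delivered AngII at 1 µg/kg/min and in 7 mice it delivered physiological saline as vehicle, in both cases for 3 weeks. RNA came from the whole aorta down to the iliac bifurcation, freed of fat and loose connective tissue, and each mouse gave 1 array.

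Elastic fibres give large arteries their recoil. They consist of a core of cross-linked elastin laid down on a scaffold of fibrillin microfibrils. In the aorta they form concentric lamellae between layers of smooth muscle cells, which secrete most of the elastin. Fibulins bridge tropoelastin, the soluble precursor, to the microfibrils and to the cells, and lysyl oxidases cross-link it there. EMILIN1 lies at the interface of elastin and microfibrils, whereas the microfibril-associated proteins encoded by Mfap2, Mfap4 and Mfap5 attach to fibrillin or to elastin itself. Most arterial elastin is laid down around birth, and its protein turns over slowly in the adult.

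The values are log2 signals, so a difference of 1 is a doubling. Array medians lay between 7.16 and 7.28, and the pairwise r of the arrays was from 0.925 to 0.985. The smooth muscle markers Acta2 and Myh11 were at 13.84 and 13.12 on average in vehicle arrays. Because the tissue is a bulk sample, fewer cells of a type and less RNA per cell cannot be told apart. The mean of 12 contractile smooth muscle genes ranged from 10.85 to 11.26 in vehicle and from 10.48 to 11.24 in AngII arrays (exact permutation test, two-sided, p = 0.049), and limma called 1 of the 12 genes, Synpo2, as lower. The mean of 8 macrophage genes ranged from 7.333 to 8.063 and from 7.982 to 9.052 (exact permutation test, two-sided, p = 0.00109), and 4 of the 8 were called higher (Cd68, Mpeg1, Lyz2 and Fcgr1). The mean of 11 measured adventitial fibroblast genes averaged 8.963 in vehicle and 9.098 in AngII arrays (exact permutation test, p = 0.0956), with Cd248 the only gene called. The 10 measured adipocyte genes averaged between 7.686 and 10.27 in vehicle and between 8.054 and 10.19 in AngII arrays (exact permutation test, p = 0.276), and none of them was called. Over all 15095 probe sets with deposited values limma called 5.33%, 2.42% higher and 2.91% lower. The mean of 8 endothelial genes ranged from 8.234 to 9.12 in vehicle and from 7.917 to 9.319 in AngII arrays (exact permutation test, p = 0.694). That of 3 cardiac muscle genes ranged from 6.603 to 10.68 and from 6.803 to 9.8 (exact permutation test, p = 0.909). That of 3 skeletal muscle genes ranged from 5.944 to 6.757 and from 6.055 to 7.78 (exact permutation test, p = 0.35). No gene of the T cell and red blood cell lists was measured here. By the submitters' own sample names the arrays belong to 2 naming series, called A (2 vehicle, 3 AngII arrays) and B (5 of each) here. What separates these series is not given in the sources used here.

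None of the 9 measured genes differed between AngII and vehicle at an adjusted p under 0.05 from limma, a linear model fitted to all probe sets with Benjamini-Hochberg adjustment. Over the whole array this threshold was passed by 5.33% of probe sets, 2.42% higher and 2.91% lower. At an unadjusted p under 0.05 there were 2 of the 9 genes, Fbln2 and Mfap5, beside 21.9% of all probe sets. The methods' t-test with the same adjustment called none of the 9 genes and 3.29% of all probe sets, and without adjustment it gave 2 of the 9 genes, beside 21.6% of all probe sets. Significance analysis of microarrays (SAM), the kind of test the study used, was computed anew here. It also called none of them at Q = 0, beside 243 probe sets, or 1.61% of all. These calls need not be those of the study. The lowest q among the genes was 2.75%, for Fbln2. The log2 fold change was above 0 for 6 genes and below 0 for 3, with a median of 0.11, beside -0.01 over all probe sets. In no gene were all AngII arrays on one side of all vehicle arrays.

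**Figure D1:**
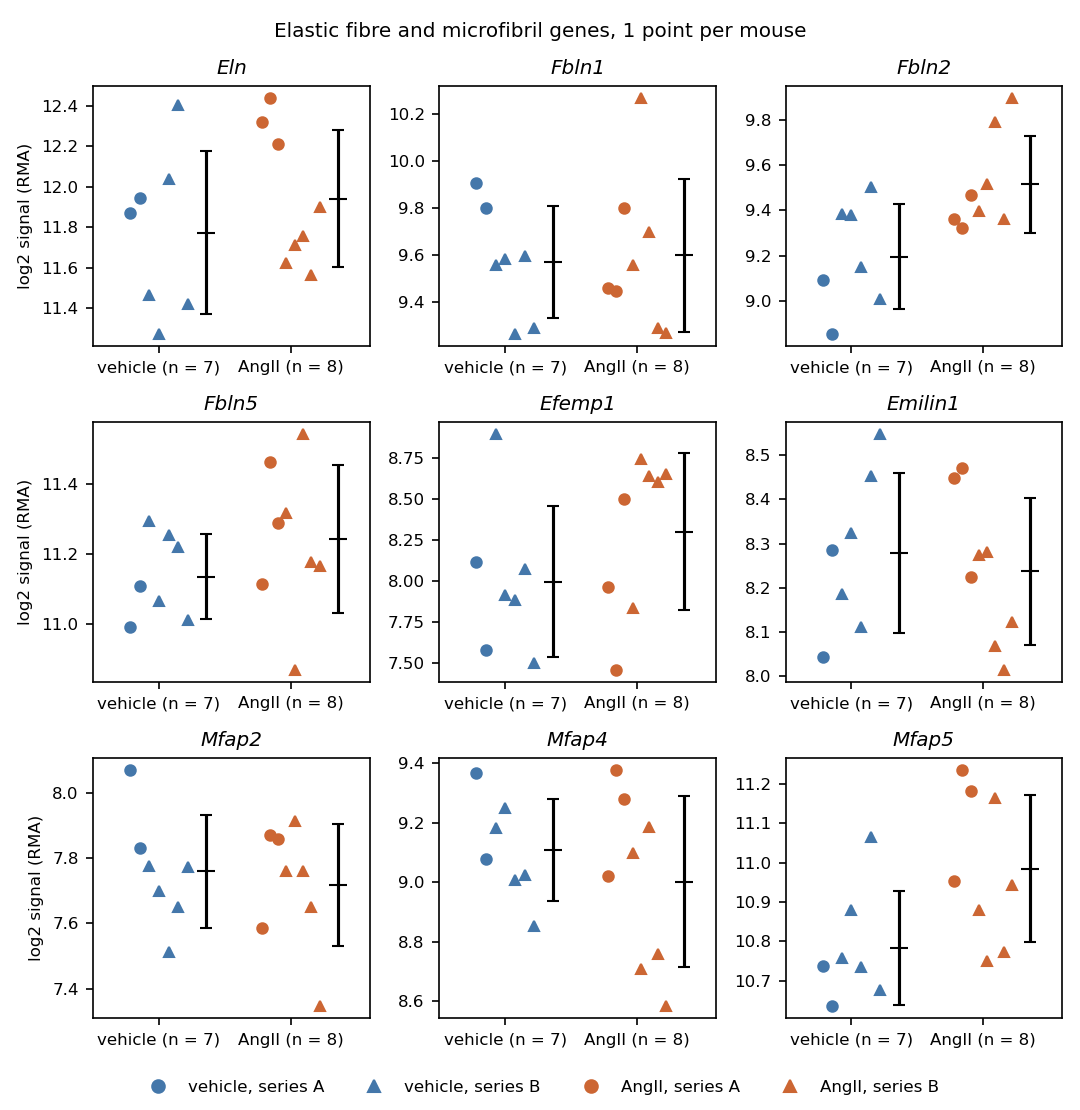
Log2 signal (vertical axes, 1 scale per gene) of the 9 measured genes in each mouse, with 7 vehicle mice in blue and 8 AngII mice in orange, circles for naming series A and triangles for series B, and black bars for mean ± SD. The groups overlap for every gene, and the 3 AngII circles of Eln stand above the 5 AngII triangles.

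Eln encodes elastin, the protein of the fibre core. Its log2 signal ran from 11.27 over a median of 11.87 to 12.40 in vehicle arrays and from 11.57 over a median of 11.83 to 12.44 in AngII arrays. The lowest 3 arrays of all were vehicle arrays, but a vehicle array was also the second highest, so that the groups overlapped over most of their range. The means were 11.77 ± 0.403 (SD, n = 7) and 11.94 ± 0.336 (SD, n = 8). The log2 fold change was 0.17 with a standard error (SE) of 0.174 (limma adjusted p = 0.610), and its 95% interval reached from -0.20 to 0.54, or from 0.871-fold to 1.45-fold. Eln varied widely between mice of the same treatment. Its SD within groups, 0.369, was at percentile 93 of all probe sets.

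The Eln values were also set out by naming series. In series A the 3 AngII arrays were at 12.32, 12.44 and 12.21 and the vehicle arrays at 11.87 and 11.94. In series B the AngII arrays ran from 11.57 to 11.90 and the vehicle arrays from 11.27 to 12.40. All AngII arrays of series A were thus above all AngII arrays of series B. Series A gave a log2 fold change of 0.42 (unadjusted p = 0.00713, limma adjusted p = 0.346) and series B of -0.01 (95% interval from -0.43 to 0.41). These changes differed by -0.43 with a standard error of 0.304 (unadjusted p = 0.183, limma adjusted p = 0.749 for the interaction). In the fit with the group, the difference between the series, B minus A, was -0.43 (unadjusted p = 0.0147, limma adjusted p = 0.167). With the series as a block the log2 fold change of Eln was 0.13 (limma adjusted p = 0.629). It was 0.30 with the contractile mean as a covariate (limma adjusted p = 0.564), 0.26 with the fibroblast mean and 0.16 with the adipocyte mean.

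Among the fibulins, Fbln2 had the largest log2 fold change. Fibulin-2 binds tropoelastin and fibrillin and is found at the inner elastic lamina of the artery. In vehicle arrays its log2 signal ran from 8.854 over a median of 9.149 to 9.502, and in AngII arrays from 9.321 over a median of 9.432 to 9.898. Each of the 8 AngII arrays was above the vehicle median and 3 were above every vehicle array, while 3 vehicle arrays reached into the AngII range. The means were 9.196 ± 0.234 (SD, n = 7) and 9.514 ± 0.214 (SD, n = 8). The log2 fold change was 0.32 with a standard error of 0.109 and a 95% interval from 0.09 to 0.55, which is 1.25-fold (from 1.06-fold to 1.46-fold). Its unadjusted p was 0.00976 and its adjusted p 0.0984 from limma, and the exact permutation test of this gene alone gave p = 0.0186 (two-sided).

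With the naming series as a block the log2 fold change of Fbln2 was 0.34 with a standard error of 0.0944 (limma adjusted p = 0.0421), and it was the only 1 of the 9 genes called in that fit, beside 6.64% of all probe sets. Within series A it was 0.41, from 8.973 to 9.383, and within series B 0.31, from 9.285 to 9.593, a difference of -0.10 (limma unadjusted p = 0.628 for the interaction). In series A alone the adjusted p was 0.354 and in series B alone 0.191 from limma. With the contractile smooth muscle mean as a covariate the log2 fold change of Fbln2 was 0.23 (limma adjusted p = 0.450), and with the fibroblast mean it was 0.21 (limma adjusted p = 0.318). With the adipocyte mean it was 0.33 (limma adjusted p = 0.131).

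Efemp1, the gene of fibulin-3, had the next largest log2 fold change and the widest spread. Fibulin-3 binds tropoelastin and an inhibitor of metalloproteinases. Its log2 signal ran from 7.503 over a median of 7.917 to 8.895 in vehicle and from 7.459 over a median of 8.552 to 8.740 in AngII arrays. The highest array and the lowest array were a vehicle and an AngII array respectively, although 6 of 8 AngII arrays were above the vehicle median. The means were 7.996 ± 0.459 (SD, n = 7) and 8.300 ± 0.479 (SD, n = 8), with a log2 fold change of 0.30 (SE 0.219, 95% interval from -0.16 to 0.77, limma adjusted p = 0.442). With the contractile mean as a covariate the log2 fold change was -0.06, with the fibroblast mean 0.06 and with the adipocyte mean 0.18. Its SD within groups, 0.470, was at percentile 96.2 of all probe sets.

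The sequence upstream of the start of these genes is shown for the pair with the largest log2 fold changes, as RefSeq gives it for the mouse assembly GRCm38.p6. Windows of 250 bases ending at the base before an annotated start were searched on both strands for the TATA box TATAAA, the box CCAAT, the GC box GGGCGG and the AP-1 motif TGANTCA. The window of Fbln2 is chr6:91212514-91212763 on the plus strand, and that of Efemp1 is chr11:28852955-28853204 on the plus strand. Capitals mark motif matches, and CCGCCC is the GC box read from the other strand.
Fbln2: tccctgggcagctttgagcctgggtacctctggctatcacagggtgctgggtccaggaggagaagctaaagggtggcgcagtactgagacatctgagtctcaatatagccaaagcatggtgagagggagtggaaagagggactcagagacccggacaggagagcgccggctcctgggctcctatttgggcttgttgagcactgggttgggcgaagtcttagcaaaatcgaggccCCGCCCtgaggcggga
Efemp1: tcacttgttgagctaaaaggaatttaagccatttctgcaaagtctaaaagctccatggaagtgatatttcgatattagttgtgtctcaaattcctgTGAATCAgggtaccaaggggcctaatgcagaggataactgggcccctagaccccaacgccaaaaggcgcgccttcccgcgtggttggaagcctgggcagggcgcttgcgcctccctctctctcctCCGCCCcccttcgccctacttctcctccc
Each window holds a single GC box near its 3′ end, and the window of Efemp1 also holds an AP-1 match. The GC box was found in 32.7% and the AP-1 motif in 6.75% of 32851 mouse windows of this length. Windows were given for 6 of the 9 measured genes, 9 windows in all, since Fbln1, Fbln5 and Mfap2 have 2 each. None of these 9 windows holds TATAAA, which 12.4% of all windows hold, and CCAAT, found in 33.8% of all, was in 1 window each of Fbln5 and Mfap2. Such matches describe the letters only and were not tested against the array values.

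Fbln5 and Fbln1 had smaller log2 fold changes. Fibulin-5 tethers elastin to cells through integrins, and mice without it have disorganised elastic fibres. Its log2 signal ran from 10.99 over a median of 11.11 to 11.29 in vehicle and from 10.87 over a median of 11.23 to 11.54 in AngII arrays. Of the 8 AngII arrays, 3 were above and 1 was below every vehicle array. Fbln5 had a log2 fold change of 0.11 (SE 0.0886, 95% interval from -0.08 to 0.29, limma adjusted p = 0.514). With the contractile mean as a covariate it was 0.22 (limma adjusted p = 0.297), with the fibroblast mean 0.12 and with the adipocyte mean 0.15. Fibulin-1 lies within elastic fibres and in the matrix around smooth muscle cells. Fbln1 ran from 9.265 over a median of 9.584 to 9.907 in vehicle and from 9.270 over a median of 9.508 to 10.27 in AngII arrays, nearly the same range apart from a single high AngII array. Its log2 fold change was 0.03 (SE 0.138, 95% interval from -0.27 to 0.32, limma adjusted p = 0.931).

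Of the microfibril-associated genes, Mfap5 alone had a 95% interval that did not include 0. It encodes MAGP2, which binds fibrillin and, in cultured cells, Notch ligands. The log2 signal of Mfap5 ran from 10.63 over a median of 10.74 to 11.06 in vehicle and from 10.75 over a median of 10.95 to 11.23 in AngII arrays. All 8 AngII arrays were above the vehicle median and 3 were above every vehicle array, yet a vehicle array also stood above 5 of the AngII arrays. The means were 10.78 ± 0.146 (SD, n = 7) and 10.98 ± 0.188 (SD, n = 8). This gave a log2 fold change of 0.20 with a standard error of 0.0861 and a 95% interval from 0.02 to 0.38, or 1.15-fold. The unadjusted p was 0.0319 and the adjusted p 0.180 from limma, and the exact permutation test of the gene alone gave p = 0.0429 (two-sided). The log2 fold change was 0.29 with the contractile mean as a covariate (limma adjusted p = 0.1705), 0.18 with the fibroblast mean and 0.23 with the adipocyte mean.

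Mfap5 and Emilin1 had the lowest unadjusted p for a difference in the AngII change between the naming series. Mfap5 had a log2 fold change of 0.44 in series A, from 10.69 to 11.12 (limma adjusted p = 0.354), and of 0.08 in series B, from 10.82 to 10.90. The difference, B minus A, was -0.36 (SE 0.168, unadjusted p = 0.0498, limma adjusted p = 0.729). Emilin1 had a log2 fold change of 0.22 in series A and of -0.17 in series B, a difference of -0.39 (SE 0.168, unadjusted p = 0.0348, limma adjusted p = 0.729). These were the only 2 of the 9 genes with an unadjusted p under 0.05 for the interaction, which 6.39% of all probe sets had, and 0.0% of all probe sets passed after adjustment. For the other genes not yet given by series, the log2 fold changes in series A and B were -0.29 and 0.16 for Fbln1, 0.24 and 0.04 for Fbln5, 0.13 and 0.44 for Efemp1, -0.18 and 0.00 for Mfap2 and 0.00 and -0.20 for Mfap4.

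The log2 fold changes of Emilin1, Mfap2 and Mfap4 were below 0, each with a 95% interval on either side of 0. EMILIN1 binds elastin and restrains the activation of transforming growth factor beta, and mice that lack it have raised blood pressure. Emilin1 ran from 8.044 over a median of 8.286 to 8.548 in vehicle and from 8.014 over a median of 8.249 to 8.471 in AngII arrays (log2 fold change -0.04, 95% interval from -0.23 to 0.14, limma adjusted p = 0.822). Mfap2, the gene of MAGP1, a fibrillin-binding glycoprotein, ran from 7.513 over a median of 7.774 to 8.069 and from 7.346 over a median of 7.760 to 7.912 (log2 fold change -0.04, 95% interval from -0.23 to 0.15, limma adjusted p = 0.829). For both genes the groups lay over each other. Mfap4 encodes an integrin ligand of the vessel wall that binds elastin. Mfap4 ran from 8.851 over a median of 9.078 to 9.367 in vehicle and from 8.583 over a median of 9.060 to 9.376 in AngII arrays. The spread was the wider in AngII arrays, of which 3, all of series B, lay below every vehicle array while another had the highest value of all. Its log2 fold change was -0.11 (SE 0.117, 95% interval from -0.35 to 0.14, limma adjusted p = 0.633). In the fit with the group, the difference of Mfap4 between the series, B minus A, was -0.27 on the log2 scale (unadjusted p = 0.0217, limma adjusted p = 0.207).

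**Figure D2:**
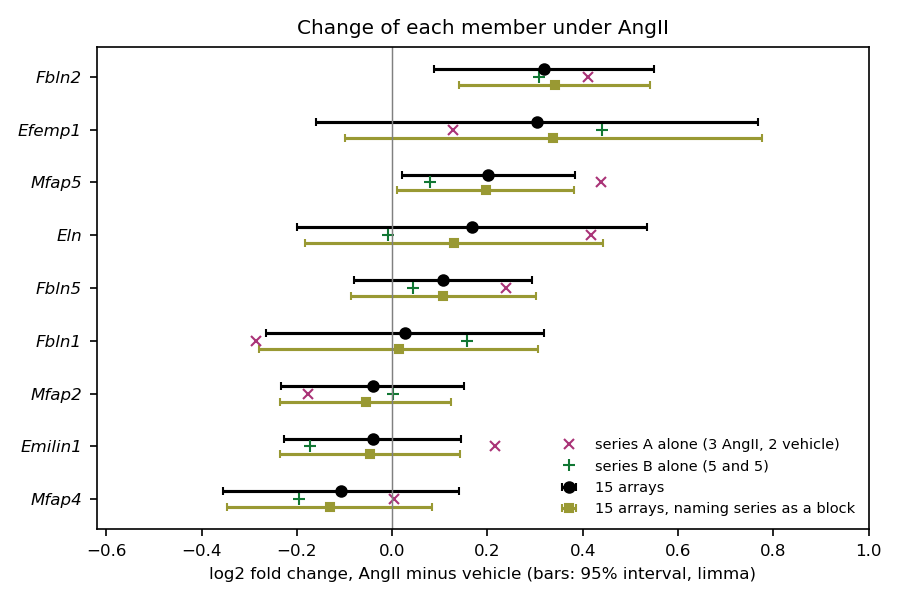
Log2 fold change, AngII minus vehicle (horizontal axis), of the 9 measured genes in limma without (black) and with (olive) the naming series as a block, with bars for 95% intervals, and in series A alone (crosses) and series B alone (plus signs). The intervals of Fbln2 and Mfap5 lie above 0 in both fits, and for Eln the values of series A and B are 0.42 and -0.01.

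The lists of other genes linked to elastic fibre assembly, cross-linking or breakdown held 36 measured genes, of which 7 were called, 6 higher and 1 lower, beside 5.33% of all probe sets. At an unadjusted p under 0.05 there were 17 of the 36, beside 21.9% of all probe sets, and their median log2 fold change was 0.08. The called genes were mostly proteases and inhibitors. Of the 16 measured genes of the scaffold list, Thsd4 alone was called. Thsd4 encodes ADAMTSL6, which promotes fibrillin microfibril assembly, and its log2 signal went from 9.534 ± 0.259 (SD, n = 7) in vehicle to 9.041 ± 0.292 (SD, n = 8) in AngII arrays. The log2 fold change was -0.49 (SE 0.133, limma adjusted p = 0.0402). Fbn1 and Fbn2, the genes of the fibrillins themselves, were not measured here. Of the other genes of the scaffold list, 5 had an adjusted p between 0.05 and 0.1 from limma, in both directions. The list takes in genes, Mmrn1 among them, whose products are not established parts of the microfibril. The log2 fold changes were 0.71 for Ltbp2 (limma adjusted p = 0.0615), 0.75 for Mmrn1 (0.0696), 0.31 for Emilin2 (0.0695), -0.39 for Ltbp4 (0.0562) and -0.25 for Adamtsl4 (0.0945). Ltbp4, whose product guides fibulin-5 onto microfibrils, passed once the naming series was a block (-0.36, limma adjusted p = 0.0418), and the others did not.

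None of the 8 measured genes of the list for elastin cross-linking was called by limma, and 2 of them had an unadjusted p under 0.05, beside 21.9% of all probe sets. The list held Lox, Loxl1, Loxl3, Loxl4, Atp7a, Bmp1, Ctsa and Neu1, not all of which encode cross-linking enzymes. Lox, the gene of lysyl oxidase, which oxidises lysines of tropoelastin and collagen, went from 10.37 ± 0.368 (SD, n = 7) to 10.80 ± 0.348 (SD, n = 8). Its log2 fold change was 0.43 with a standard error of 0.169 and a 95% interval from 0.07 to 0.79 (limma adjusted p = 0.149).

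Of the 7 measured genes of elastin-degrading proteases, 4 were called higher and none lower, beside 2.42% higher and 2.91% lower over all probe sets. Ctss, the gene of cathepsin S, a protease of antigen-presenting cells that degrades elastin, had the largest difference, from 7.735 ± 0.347 (SD, n = 7) to 8.853 ± 0.718 (SD, n = 8). The log2 fold changes were 1.12 for Ctss, 0.81 for Ctsk, the gene of cathepsin K, 0.63 for Mmp2, the gene of gelatinase A, and 0.34 for Ctsl, the gene of cathepsin L (adjusted p = 0.0256, 0.00414, 0.0273 and 0.0186 from limma). Mmp9, the gene of gelatinase B, was not called (-0.15, limma adjusted p = 0.478). Mmp14, another protease gene, was not called either (0.35, limma adjusted p = 0.0899). Of the 5 measured inhibitor genes, 2 were called higher and none lower, beside the same shares. Timp4, another inhibitor gene, was not called and had a log2 fold change of -0.31 (limma adjusted p = 0.0662). Timp1, the gene of a metalloproteinase inhibitor, went from 7.056 ± 0.266 (SD, n = 7) to 8.254 ± 0.481 (SD, n = 8), with a log2 fold change of 1.20 (SE 0.186, limma adjusted p = 0.00368). Cst3, the gene of the cathepsin inhibitor cystatin C, had a log2 fold change of 0.29 (limma adjusted p = 0.0314), and another probe set of Cst3 had 0.19 (limma adjusted p = 0.215). Macrophages express several of these proteases. The macrophage marker mean was 0.612 higher on the log2 scale in AngII arrays. Of its 8 markers 4 were called higher, beside 2.42% of all probe sets. The part of this mean in these results was not tested.

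**Figure D3:**
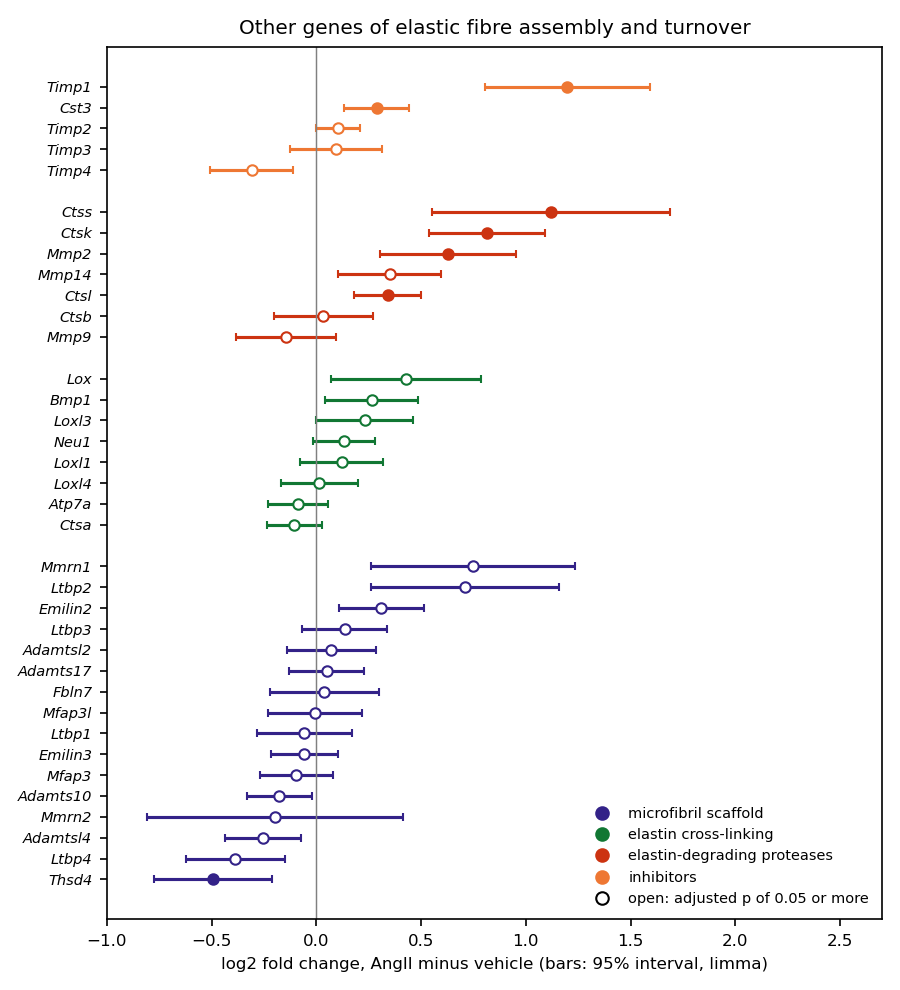
Log2 fold change, AngII minus vehicle (horizontal axis), of the 36 measured genes of the lists for elastic fibre assembly, cross-linking and breakdown, by list, with 95% intervals from limma over 15 arrays. Filled points passed an adjusted p of 0.05, and they are 4 proteases, 2 inhibitors and the scaffold gene Thsd4.

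Several calls in these lists lay near the threshold and were lost when 1 array was left out, while the log2 fold changes kept their sign. That of Thsd4 then lay between -0.56 and -0.41, that of Mmp2 between 0.54 and 0.74, that of Ctss between 0.90 and 1.22 and that of Cst3 between 0.24 and 0.32. Thsd4 lost its call without any one of vehicle 2, 4, 5, 6 and 7 and AngII 3, 4, 5, 7 and 8, with adjusted p up to 0.0946 from limma. Mmp2 lost it without vehicle 2, 4, 5 or 7 or AngII 8 (up to 0.0675), Ctss without vehicle 2, 5 or 7 or AngII 5 (up to 0.0622) and Cst3 without vehicle 2 or 5 or AngII 3 or 5 (up to 0.0782). Ctsk, Ctsl and Timp1 were called whichever array was left out. Over 15 other settings Ctsl lost its call in 6, and Ctsk and Timp1 lost theirs in 1 each. In those settings the log2 fold change of Ctsl lay between 0.26 and 0.48. Ctsl was not called in series B alone (limma adjusted p = 0.138) or with the contractile or fibroblast covariate (0.108 and 0.0737). The 7 calls became 3 without vehicle 2 or vehicle 5, 4 without vehicle 7 or AngII 5, and 12 without AngII 6. Over all probe sets the 805 calls became, in the same order, 406, 344, 477, 488 and 1198. With the contractile smooth muscle mean as a covariate the log2 fold changes were -0.20 for Thsd4, 0.35 for Mmp2 and 0.62 for Ctss (limma adjusted p = 0.185, 0.206 and 0.187), each less than in the fit without it by over 1.5 times, whereas Ctsk (0.59) and Timp1 (1.09) were called in that fit (limma adjusted p = 0.0263 and 0.0303). In naming series A alone, with 5 arrays, the log2 fold changes were -0.13 for Thsd4, 0.17 for Mmp2, 0.48 for Ctss, 0.47 for Ctsk and 0.45 for Cst3, and in series B alone they were -0.68, 0.84, 1.48, 0.99 and 0.22.

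Whether the 9 genes varied together with Eln between mice of the same treatment was examined after group means were subtracted, over 15 arrays. None of 8 relations of Eln with another gene of the set passed an adjusted p of 0.05 in a permutation test. The largest was with Mfap5 (Pearson r = 0.531, p = 0.0467, adjusted p = 0.374; Spearman rho = 0.489, p = 0.0734, adjusted p = 0.587, permutation tests). It was 0.18 without AngII 2 and vehicle 6, the arrays farthest from the median, and 0.47 within series B. Eln and Fbln5, whose products bind each other, had r = 0.244.

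Over all probe sets with 1 symbol, those most like Eln by the same centred correlation over 15 arrays were of Ccn2 (r = 0.919), Slc45a3 (0.899), Ext1 (0.891), Srebf2 (0.868) and Lox (0.863). In the arrays of series B their r with Eln lay between 0.826 for Srebf2 and 0.896 for Ccn2. Here the group means subtracted were those of all 15 arrays, not those of series B. Ccn2 encodes connective tissue growth factor, Ext1 an enzyme of heparan sulfate synthesis and Srebf2 a regulator of cholesterol synthesis. Ccn2 had a log2 fold change of 0.45 (limma adjusted p = 0.0896). These genes were ranked by this correlation, so that it is a description without a test, and the arrays share their naming series and tissue make-up.

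Relations of the 9 genes with the means of the contractile, fibroblast and adipocyte genes were computed in the same way, 27 in all. None passed an adjusted p of 0.05 by Pearson correlation, and 1 passed by Spearman correlation. Efemp1 was the lower the higher the contractile mean was (r = -0.697, p = 0.00559, adjusted p = 0.143 and rho = -0.789, p = 0.00112, adjusted p = 0.0302, permutation tests). Its r was -0.752 without AngII 5 and vehicle 1, -0.57 within series B and -0.919 within series A, which holds 5 arrays. Fbln1 was the higher the higher the fibroblast mean was (r = 0.68, adjusted p = 0.143 and rho = 0.704, adjusted p = 0.0863, permutation tests), with r = 0.888 within series B, and r was 0.433 without AngII 5 and AngII 6. The r of Fbln1 was thus lower without these arrays. Within series A, which holds 5 arrays and neither of these, r was 0.909.

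**Figure D4:**
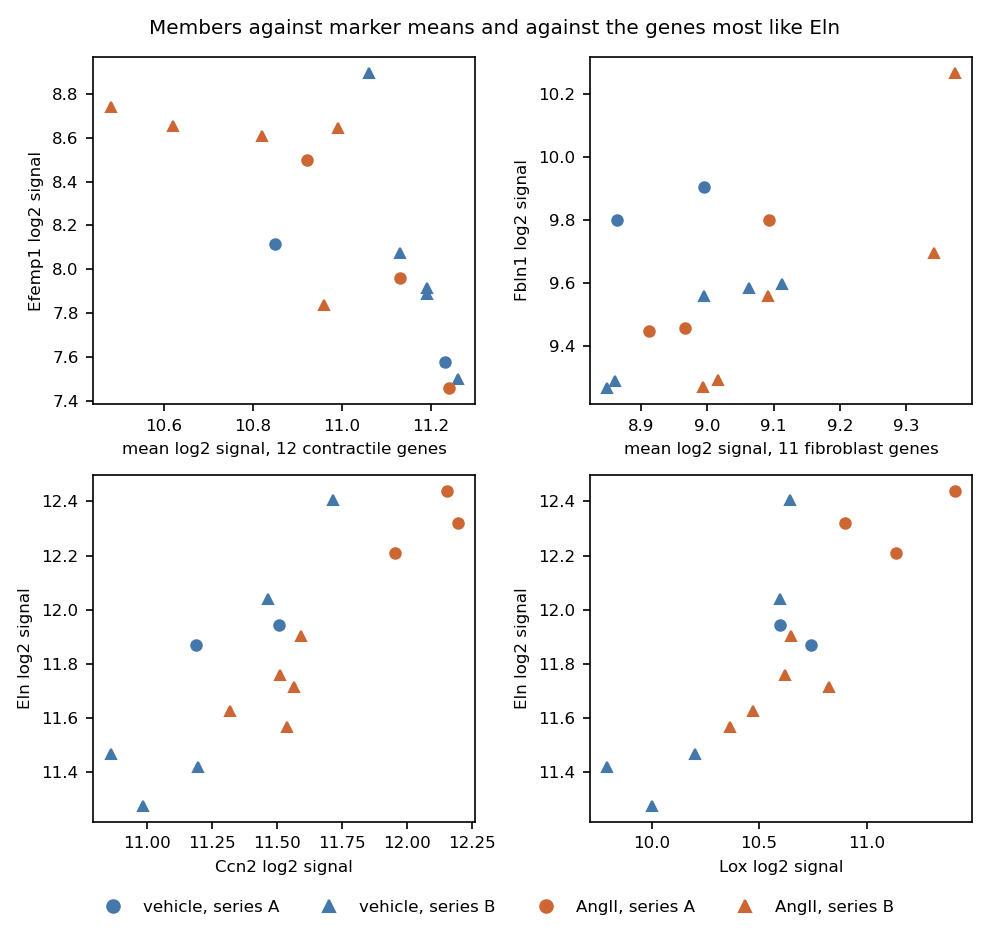
Log2 signal of Efemp1 against the mean of 12 contractile genes, of Fbln1 against the mean of 11 fibroblast genes, and of Eln against Ccn2 and Lox, 1 point per mouse, coloured and shaped by treatment and naming series, without subtraction of group means. Efemp1 runs from high to low as the contractile mean rises from 10.48 to 11.26, and Eln runs from low to high with Ccn2 and with Lox.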

How the data were processed

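RNA of 15 mouse aortae (7 vehicle, 8 AngII) was measured on Affymetrix arrays after labelling with the WT Terminal Labeling kit. The labels name Trizol with RNeasy for extraction and the methods name other Qiagen kits, and the methods write the strain as C56Bl/6. The authors corrected, normalized and summarized the probe sets by robust multiarray analysis (RMA) in Affymetrix Expression Console, and the deposited values are log2 signals. No filter was applied here. The genome build of the probe sets is not given in the sources used here. Symbols came from the platform annotation, and the Entrez ID gave the same symbol for 9 of 9 measured genes.

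The 8 AngII arrays were compared with the 7 vehicle arrays by limma 3.58.1 in R 4.3.3 (lmFit and eBayes, Benjamini-Hochberg adjustment over 15095 probe sets, threshold 0.05), and single genes by exact permutation of the 15 arrays (Python 3.11.15). SAM, computed anew, used 100 permutations and relations 100000 resamples within groups. limma and SAM were first checked on simulated arrays. The labels name each array as a separate sample, and the methods describe 1 aorta per mouse. The number of arrays limits the precision. No gene length or read depth applies to these values.

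The text names every gene of the list that was measured, each companion gene called by limma and the first gene of each companion list. It also names the 5 genes most like Eln. Mmp9, Mmp14, Timp4, the markers and the 5 genes of the scaffold list with an adjusted p between 0.05 and 0.1 were named after their values were seen. The same holds for the cross-linking list other than Lox. The genes and lists were chosen with earlier results of these data known. The alternatives tried were a block for the naming series, each series alone, each array left out, the 3 arrays with the lowest correlation left out, marker means as covariates, other normalizations, a filter on dim probe sets, the mean over probe sets, array weights, a trended prior, the methods' t-test, SAM and a replicate block. Promoter windows came from a RefSeq table.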

Additional observations from a re-analysis of the deposited data

How the results depend on the processing

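The number of arrays and the spread between mice limit these values: where the 95% interval of a gene includes 0, its change was not detectable at this number of arrays, and whole tissue holds several cell types. The count of called genes among the 9 was 0 whichever array was left out, and it was 1 (Fbln2) with the naming series as a block and 2 (Fbln2 and Mfap5) by the methods' t-test without adjustment, beside 21.6% of all probe sets. Over 16 other settings the log2 fold change of Fbln2 lay between 0.21 and 0.41 (adjusted p from 0.0421 to 0.450 from limma). It lay between 0.26 and 0.37 (0.0658 to 0.198) when an array was left out, where that of Mfap5 lay between 0.17 and 0.25 (0.0995 to 0.304).

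Directions that turned were all of genes that were not called, and the causes were not tested. Mfap2 was at 0.0121 in the 14 arrays numbered alike in both groups, unpaired and with the replicate block, at 0.00271 in series B and at 0.0402 without the 3 arrays of lowest correlation (AngII 8, AngII 5 and vehicle 1). Eln was at -0.00792 in series B. Fbln1 was at -0.29 in series A and at -0.0528, -0.12 and -0.16 with the adipocyte, contractile and fibroblast mean as a covariate. Emilin1 was at 0.22 in series A and 0.0621 with the contractile covariate. Mfap4 was at 0.00296 in series A, 0.0548 without those 3 arrays and 0.0221 with the contractile covariate, which put Efemp1 at -0.0642. With an array left out, the ranges that crossed 0 were -0.069 to 0.0828 for Fbln1, -0.0803 to 0.00369 for Emilin1 and -0.082 to 0.0121 for Mfap2. The other 6 genes kept their sign.

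The 7 calls among the 36 companion genes became 0 in series A, 3 and 4 with the contractile and fibroblast covariates (Thsd4 -0.20 and -0.34, Mmp2 0.35 and 0.52, Ctss 0.62 and 0.95 on the log2 scale), 12 with array weights, 4 with the methods' t-test after adjustment and from 3 to 12 when an array was left out. The number called over all 15095 probe sets moved as well. It went from 805 to 8 in series A, 127 and 415 with those covariates, 1272 with array weights and 496 with the t-test. When an array was left out it lay between 344 and 1198. Array numbers are shared by both groups, and the methods describe no pairing. Deviations of same-numbered arrays correlated above 0.1 in 4 of 7 pairs, with r from -0.456 to 0.416. Other pairs of arrays were not set beside them, so this cannot decide whether the numbers mark pairs. With the replicate block in the 14 arrays numbered alike, 0 of the 9 and 2 companion genes were called, beside 191 of all probe sets. Without the block 0 and 5 were called, beside 538 of all probe sets. Relations with marker means, examined in alternatives added after the data were seen, passed in 0 or 1 of 27 when an array was left out (1 without vehicle 1 or AngII 8) and in 1 within series B. Relations with Eln passed in 0 of 8 throughout.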
